A study of Rattus norvegicus with 12 samples.

Results

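Prostaglandin synthesis was followed through 10 genes in all libraries of the study: 3 phospholipases A2 (Pla2g2a, Pla2g4a and Pla2g5), both cyclooxygenases (Ptgs1 and Ptgs2), 3 prostaglandin E synthases (Ptges, Ptges2 and Ptges3), prostacyclin synthase (Ptgis) and prostaglandin D synthase (Ptgds). They were taken by symbol from the table of read counts, where all 10 had a row among 30045 symbols, and all 10 passed the filter on low counts with 17330 genes in all. The cells were theca-interstitial cells, which surround ovarian follicles and make androgens, from wild-type female Sprague Dawley rats on postnatal day 30, grown on fibronectin-coated plates. For 48 h they received LPS (lipopolysaccharide, a bacterial cell wall component, at 1 µg/ml), rat IL-1β (a cytokine of inflammation, whose dose the labels do not give) or vehicle as control, with 4 libraries for each. Whether replicates came from separate animals or isolations is not stated in the labels, so p-values measure the spread between these cultures.

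Prostaglandins are lipid signals cut from membranes on demand. A phospholipase A2 frees arachidonic acid, a cyclooxygenase turns it into prostaglandin H2, and a terminal synthase converts that into prostaglandin E2, prostacyclin or prostaglandin D2. In the ovary they are best known for ovulation, when the surge of luteinizing hormone induces cyclooxygenase 2 in the follicle. Ptgs2 and Ptges are known in many cell types as an inducible pair that stimuli such as IL-1 and LPS switch on together, whereas Ptgs1, Ptges2 and Ptges3 are regarded as mostly constitutive.

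Messenger RNA was sequenced from a stranded library kit, and reads were counted per gene symbol. The total count of a library was 25643226 to 28698783 with LPS, 23193408 to 26836323 with IL-1β and 20873934 to 32090924 in control. LPS replicates 3 and 4 lay apart from LPS replicates 1 and 2 on the second principal component of all genes (24.7 and 21.3, against 10.5 and 12.6), and results that rest on them are given without them as well. Of the markers that define theca cells, the androgen enzyme gene Cyp17a1 had 12 to 18 counts and the peptide hormone gene Insl3 4 to 8 counts per control library, so both were near the limit of detection there, while the cholesterol carrier gene Star had at least 3008. Of the 6 theca markers 5 rose with LPS, against 22.5% of all genes tested, and 6 with IL-1β, against 24.7%. Markers of other ovarian cells were present as well. Of 6 granulosa markers 2 rose and 1 fell with LPS, and 3 rose and 2 fell with IL-1β. Among them Inha had 5619 to 15538 counts per library and Cyp19a1 0 to 14. Of 6 epithelial and mesothelial markers 1 rose and 3 fell with either stimulus. The marker that rose was Msln, with 3 to 14 counts per control library. Control libraries alone would not have carried Msln or Cyp19a1 past the filter, so the rises of both followed in part from it.

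The promoters of 3 members are shown because Pla2g2a and Ptgs2 rose and Ptges fell under the same stimuli. Each holds 250 bases before and 50 after the transcription start in RefSeq (build GRCr8, which is not the build of the read counts), 5′ to 3′, and RefSeq gave such a window for 8 of the 10 members. Capitals mark matches to 4 motifs on either strand: GGG and CC with any 5 bases between them (a loose form of the κB site bound by NF-κB), TTNNGCAA (a form of the C/EBP site), CGTCA (one arm of the cAMP response element) and TATAAA.
Pla2g2a, chr5:156359475-156359774, + strand: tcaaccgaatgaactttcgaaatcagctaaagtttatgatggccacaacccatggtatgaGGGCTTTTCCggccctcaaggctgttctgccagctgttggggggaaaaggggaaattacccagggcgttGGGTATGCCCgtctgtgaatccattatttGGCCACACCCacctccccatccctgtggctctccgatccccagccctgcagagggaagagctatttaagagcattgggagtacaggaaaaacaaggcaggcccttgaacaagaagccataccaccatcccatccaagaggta
Ptgs2, chr13:64713813-64714112, + strand: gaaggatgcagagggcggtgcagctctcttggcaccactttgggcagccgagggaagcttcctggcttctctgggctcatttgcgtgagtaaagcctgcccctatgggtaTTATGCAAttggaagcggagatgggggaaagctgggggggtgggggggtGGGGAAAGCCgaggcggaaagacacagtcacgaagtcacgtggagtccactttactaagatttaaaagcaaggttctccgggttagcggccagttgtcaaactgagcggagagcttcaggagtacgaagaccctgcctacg
Ptges, chr3:34586938-34587237, - strand: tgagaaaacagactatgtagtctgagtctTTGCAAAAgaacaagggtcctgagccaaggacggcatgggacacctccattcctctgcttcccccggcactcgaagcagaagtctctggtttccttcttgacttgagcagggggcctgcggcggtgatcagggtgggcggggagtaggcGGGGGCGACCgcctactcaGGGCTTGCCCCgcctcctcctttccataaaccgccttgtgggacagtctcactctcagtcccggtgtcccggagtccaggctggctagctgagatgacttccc
The loose κB letters stood at 3 positions in Pla2g2a, starting at bases -190, -121 and -92 from the transcription start, at 1 in Ptgs2 (-91) and at 3 in Ptges (-72, -53 and -52, the last pair overlapping). They were in 47.3% of all 33469 promoters of this length. Among the members whose windows are not shown, they stood in Ptgs1 and Ptges3 and were absent from Pla2g4a, Pla2g5 and Ptgds. The C/EBP letters stood once in Ptgs2 (-140) and once in Ptges (-221), against 10.6% of all promoters. The letters CGTCA, found in 21.2% of promoters, and TATAAA, found in 14.2%, had no match in these 3 windows. Such matches describe the letters and do not show a bound site.

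After 48 h the members did not move as 1 block. Phospholipase and cyclooxygenase 2 transcripts were higher with either stimulus, while the transcripts of microsomal prostaglandin E synthase (Ptges) and of prostacyclin synthase were lower. Changes were tested with edgeR's quasi-likelihood F-test and called at a Benjamini-Hochberg adjusted p under 0.05 over all 17330 genes, with ± after a log2 fold change for its SE. With LPS, 5 of 10 members were called higher, against 22.5% of all genes, and 2 lower, against 20.0%. With IL-1β, 5 were called higher, against 24.7% of all genes, and 3 lower, against 23.0%. Since these shares of called genes are large, a fold minimum was added: at a fold of at least 1.5 as well, 3 members were higher with LPS, against 5.33% of all genes, and 1 was lower, against 5.49%. With IL-1β these were 4 higher, against 7.52%, and 1 lower, against 5.77%. Counted by groups that did not overlap, 5 members were higher and 2 lower with LPS, against 20.1% and 18.2% of all genes, and 6 were higher and 3 lower with IL-1β, against 22.8% and 21.4%. The members' median log2 fold change was 0.40 with LPS and 0.30 with IL-1β, beside 0.01 over all genes in both. Ptgds passed the filter through its IL-1β libraries alone, so its call with IL-1β followed in part from the filter, and 4 of the other 9 members were higher there. The IL-1β counts of higher members at a fold of at least 1.5 and without overlap include Ptgds too. The comparisons of LPS and IL-1β with control share the same control libraries. In such bulk libraries, fewer cells of a type and less RNA per cell cannot be told apart.

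**Figure D1:**
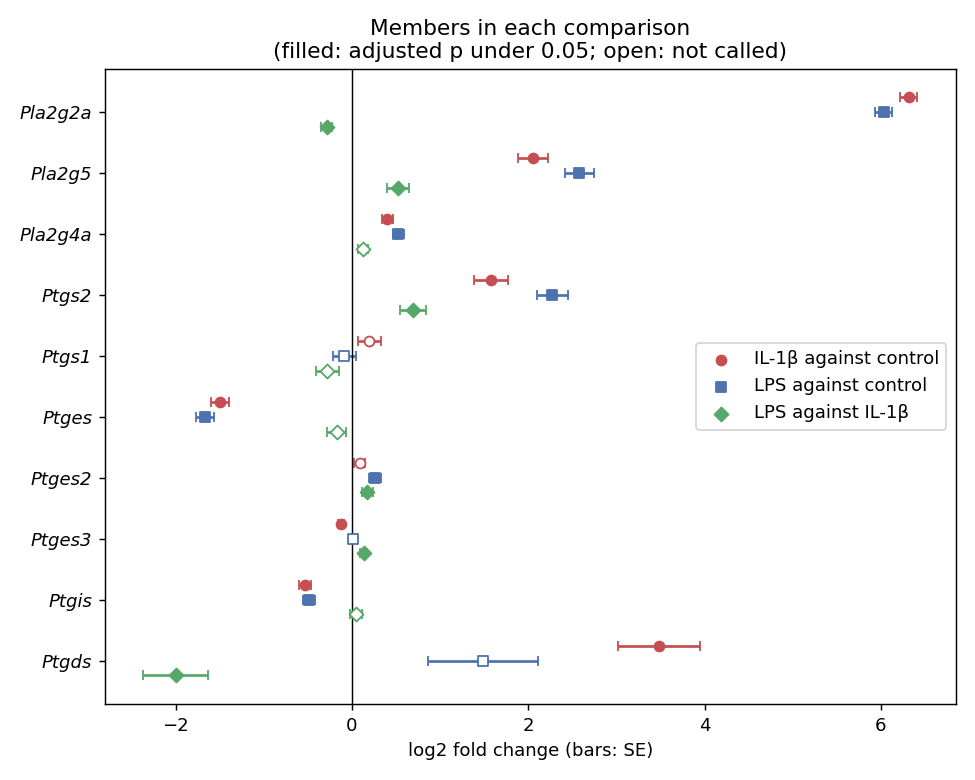
Log2 fold change of each of the 10 genes (rows) in 3 comparisons, LPS against control (squares), IL-1β against control (circles) and LPS against IL-1β (diamonds), with bars for the SE. Filled symbols had an adjusted p under 0.05. Pla2g2a lies near 6 with both stimuli, Ptges near -1.5, and Ptgs1 has only open symbols.

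Pla2g2a encodes a secreted phospholipase A2 that is released in inflammation and also attacks bacterial membranes. Its level in CPM, the read count relative to the scaled library total, was 432, 412, 464 and 450.5 with LPS, 539, 513, 540.4 and 550.0 with IL-1β and 7.65, 5.54, 8.59 and 5.47 in control. The 3 groups did not overlap, and the control libraries held 142 to 241 reads each. Pla2g2a rose 65.3-fold with LPS (log2 fold change 6.03 ± 0.09, adjusted p = 1.22e-13, edgeR) and 79.6-fold with IL-1β (6.31 ± 0.09, adjusted p = 6.43e-14, edgeR), which placed it at rank 3 with LPS and rank 4 with IL-1β among 17330 genes ordered from the highest fold change.

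Pla2g5 encodes another secreted phospholipase A2, known for its activity in macrophages. It had 5.56, 5.81, 6.31 and 6.40 CPM with LPS, 3.69, 4.31, 4.83 and 3.85 CPM with IL-1β and 1.24, 0.663, 1.46 and 0.724 CPM in control. No 2 groups overlapped, and LPS libraries were the highest. Pla2g5 rose 5.98-fold with LPS (2.58 ± 0.16, adjusted p = 1.34e-13, edgeR) and 4.15-fold with IL-1β (2.05 ± 0.17, adjusted p = 5.75e-11, edgeR). In RefSeq's annotation of GRCr8, Pla2g2a lies within the span of Pla2g5 on the opposite strand, and the sources used here do not say whether reads were counted by strand. Pla2g5 counts were 1.29% to 1.42% of Pla2g2a counts in LPS libraries, 0.684% to 0.893% in IL-1β libraries and 11.97% to 17.05% in control libraries. The part of reads from Pla2g2a in the Pla2g5 row was not tested.

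Pla2g4a encodes the cytosolic phospholipase A2 that prefers arachidonic acid and is switched on by calcium and by phosphorylation. Its level was 22.3, 21.9, 25.5 and 24.7 CPM with LPS, 21.4, 22.3, 21.8 and 20.9 CPM with IL-1β and 17.5, 16.3, 15.4 and 15.9 CPM in control. Every stimulated library was above every control library, while LPS and IL-1β overlapped. The rise was 1.44-fold with LPS (0.53 ± 0.06, adjusted p = 1.67e-08, edgeR) and 1.32-fold with IL-1β (0.40 ± 0.06, adjusted p = 2.01e-06, edgeR), so it passed the test with both but stayed under a fold of 1.5. Pla2g4a and Ptgs2 are neighbours on chromosome 13 in RefSeq's GRCr8 annotation, with 0 protein-coding genes between them.

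**Figure D2:**
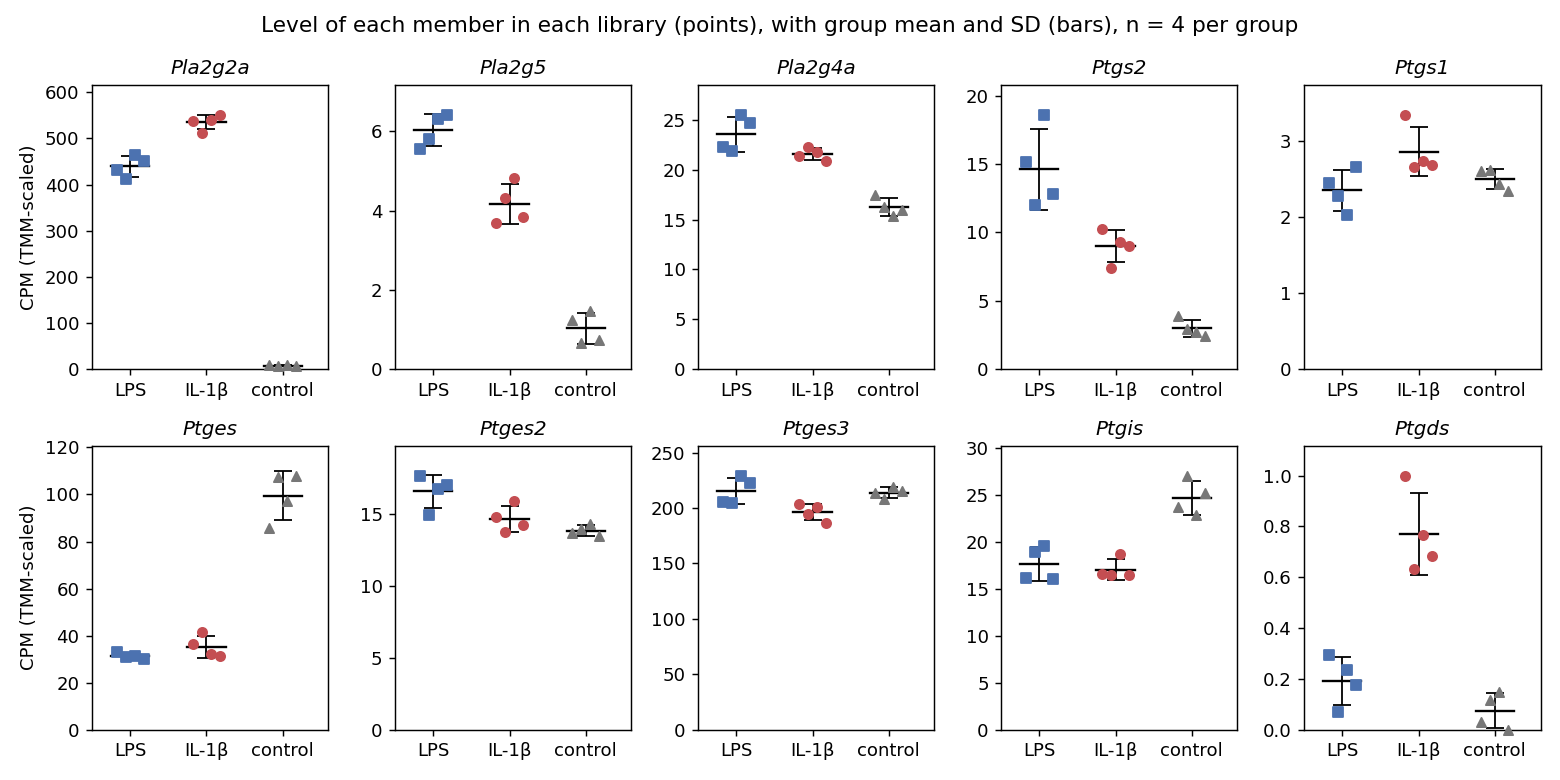
Level of each of the 10 genes in CPM in every library (points), by group (LPS, IL-1β, control), with the group mean and SD as bars (n = 4 libraries per group). Each panel has its own scale, which starts at 0. Pla2g2a, Pla2g5, Pla2g4a and Ptgs2 sit above control with both stimuli, and Ptges and Ptgis sit below it.

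Of the cyclooxygenases, the inducible Ptgs2 rose and the constitutive Ptgs1 was not called in any comparison. Ptgs2 had 15.1, 11.97, 18.6 and 12.8 CPM with LPS, 10.2, 7.40, 9.29 and 9.02 CPM with IL-1β and 3.87, 2.89, 2.73 and 2.44 CPM in control. The 3 groups did not overlap. Ptgs2 rose 4.83-fold with LPS (2.27 ± 0.18, adjusted p = 2.33e-07, edgeR) and 2.99-fold with IL-1β (1.58 ± 0.19, adjusted p = 1.41e-05, edgeR). Its rank from the highest fold change was 83 with LPS and 243 with IL-1β.

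Ptgs1 was measured at 52 to 76 reads per LPS library, 63 to 87 per IL-1β library and 50 to 82 per control library. Its level was 2.35 ± 0.268 CPM with LPS, 2.86 ± 0.322 CPM with IL-1β and 2.499 ± 0.133 CPM in control (SD, n = 4 each). The log2 fold change was -0.08 ± 0.13 with LPS (adjusted p = 0.651, edgeR) and 0.20 ± 0.13 with IL-1β (adjusted p = 0.225, edgeR). The IL-1β libraries (2.66 to 3.34 CPM) lay above all control libraries (2.34 to 2.61 CPM), as in 22.8% of all genes tested, without passing the test.

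Among the prostaglandin E synthases only Ptges had a large change, and it fell. Ptges encodes the microsomal enzyme that works with cyclooxygenase 2. Its level was 33.0, 30.7, 31.5 and 30.2 CPM with LPS, 36.3, 41.5, 32.2 and 31.1 CPM with IL-1β and 85.7, 108, 97.0 and 108 CPM in control. Each stimulated library held less than every control library, at 808 to 903 reads with LPS, 728 to 981 with IL-1β and 1988 to 3274 in control. The log2 fold change was -1.67 ± 0.10 with LPS (adjusted p = 1.26e-07, edgeR) and -1.50 ± 0.10 with IL-1β (adjusted p = 2.51e-07, edgeR), so the level was 3.17-fold lower with LPS and 2.82-fold lower with IL-1β than in control. Counted from the lowest fold change, Ptges had rank 111 with LPS and 156 with IL-1β.

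Ptges2 encodes a synthase of the Golgi membrane. It averaged 16.6 ± 1.15 CPM with LPS, 14.7 ± 0.933 CPM with IL-1β and 13.9 ± 0.367 CPM in control (SD, n = 4 each). It rose with LPS (0.26 ± 0.06, adjusted p = 0.0012, edgeR), where all 4 libraries (15.0 to 17.7 CPM) lay above control (13.5 to 14.3 CPM), and was not called with IL-1β (0.09 ± 0.06, adjusted p = 0.282, edgeR).

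Ptges3 encodes p23, a co-chaperone of heat shock protein 90 that also acts as a cytosolic synthase. It averaged 215 ± 12.1 CPM with LPS, 196 ± 7.57 CPM with IL-1β and 214 ± 4.76 CPM in control (SD, n = 4 each). It was not called with LPS (0.01 ± 0.03, adjusted p = 0.858, edgeR), where the sign of the value turned with upper-quartile scaling (-0.0027) and without LPS replicate 3 (-0.02), LPS replicate 4 (-0.0066) or Control replicate 2 (-0.0050). With IL-1β it fell by 0.12 on the log2 scale (SE 0.03, adjusted p = 0.00487, edgeR), a call that was lost when libraries were scaled by their totals alone (-0.07, adjusted p = 0.0748). The table holds rows for genes of similar name. Ptges3l1 had log2 fold changes of -0.01 ± 0.04 with LPS (adjusted p = 0.89, edgeR) and -0.13 ± 0.04 with IL-1β (adjusted p = 0.0127, edgeR). Ptges3l had -0.18 ± 0.05 with LPS (adjusted p = 0.00692, edgeR) and -0.15 ± 0.05 with IL-1β (adjusted p = 0.0255, edgeR). How reads that fit more than 1 of these rows were counted is not given in the sources used here, so the counts of Ptges3 are uncertain.

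Ptgis encodes prostacyclin synthase, an enzyme of vessel wall cells whose product relaxes smooth muscle. It had 16.1, 18.9, 19.5 and 16.0 CPM with LPS, 16.5, 16.5, 18.7 and 16.5 CPM with IL-1β and 23.7, 27.0, 22.8 and 25.2 CPM in control. All stimulated libraries were below all control libraries, and LPS and IL-1β overlapped. It fell by 0.49 on the log2 scale with LPS (SE 0.07, adjusted p = 1.23e-06, edgeR) and by 0.53 with IL-1β (SE 0.07, adjusted p = 2.92e-07, edgeR). The level was 1.40-fold lower with LPS and 1.45-fold lower with IL-1β than in control.

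Most smooth muscle markers and most endothelial markers moved in opposite directions beside Ptgis. Of 6 smooth muscle markers 5 fell with LPS, against 20.0% of all genes. With IL-1β 5 fell, against 23.0%, and 1 rose (Des, 0.30 ± 0.05, adjusted p = 8.14e-05, edgeR). Their summed level was 1786 to 2032 CPM with LPS, 1475 to 1676 CPM with IL-1β and 4625 to 5018 CPM in control. Most of this sum was Acta2 and Tagln, which averaged 1982 and 2380 CPM in control. Of 10 endothelial markers 9 rose with LPS, against 22.5% of all genes, and all 10 with IL-1β, against 24.7%. The endothelial sums were 263.6 to 354 CPM with LPS, 378 to 431 CPM with IL-1β and 178 to 210.2 CPM in control. Which cells of the culture these markers came from, and their part in the change of Ptgis, was not tested.

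Ptgds encodes the lipocalin-type prostaglandin D synthase, also a carrier of lipids. It was near the limit of detection, with 8, 2, 6 and 5 reads with LPS, 26, 15, 21 and 16 reads with IL-1β and 1, 3, 3 and 0 reads in control. The IL-1β libraries were the highest and did not overlap with the others, while LPS and control overlapped. Ptgds rose with IL-1β (3.48 ± 0.46, adjusted p = 3.82e-07, edgeR), with a ratio of summed scaled counts of 11.98 and a 95% counting interval of 5.55 to 30.8. Because Ptgds passed the filter on low counts through its IL-1β libraries alone, this rise followed in part from the filter. Its test and interval are therefore given as a description. With LPS it was not called (1.49 ± 0.62, adjusted p = 0.0562, edgeR), where the ratio was 2.94 (1.21 to 8.19). That call was made in 6 of the other settings, including limma-voom (adjusted p = 0.0375) and without LPS replicate 2 (adjusted p = 0.0217), without Control replicate 2 (adjusted p = 0.0435) or without Control replicate 3 (adjusted p = 0.0304). These intervals cover counting error alone.

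Ratios of read counts within a library do not depend on scaling between libraries, and they were read across libraries, not as ratios of molecules. The ratio of Ptgs2 to Ptgs1 was 4.82 to 9.15 with LPS, 2.78 to 3.39 with IL-1β and 1.04 to 1.49 in control. That of Pla2g2a to Pla2g4a was 18.2 to 19.4 with LPS, 23.0 to 26.3 with IL-1β and 0.340 to 0.557 in control. In both, no groups overlapped. The ratio of Ptges to Ptgis was 1.61 to 2.05 with LPS, 1.73 to 2.52 with IL-1β and 3.62 to 4.27 in control, so Ptges fell further than Ptgis with either stimulus. The ratio of Ptgs2 to Ptges, which was added after the values were seen, stood at 0.390 to 0.589 with LPS, 0.178 to 0.290 with IL-1β and 0.0226 to 0.0452 in control. The highest LPS value of the first and the last ratio was that of LPS replicate 3.

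**Figure D3:**
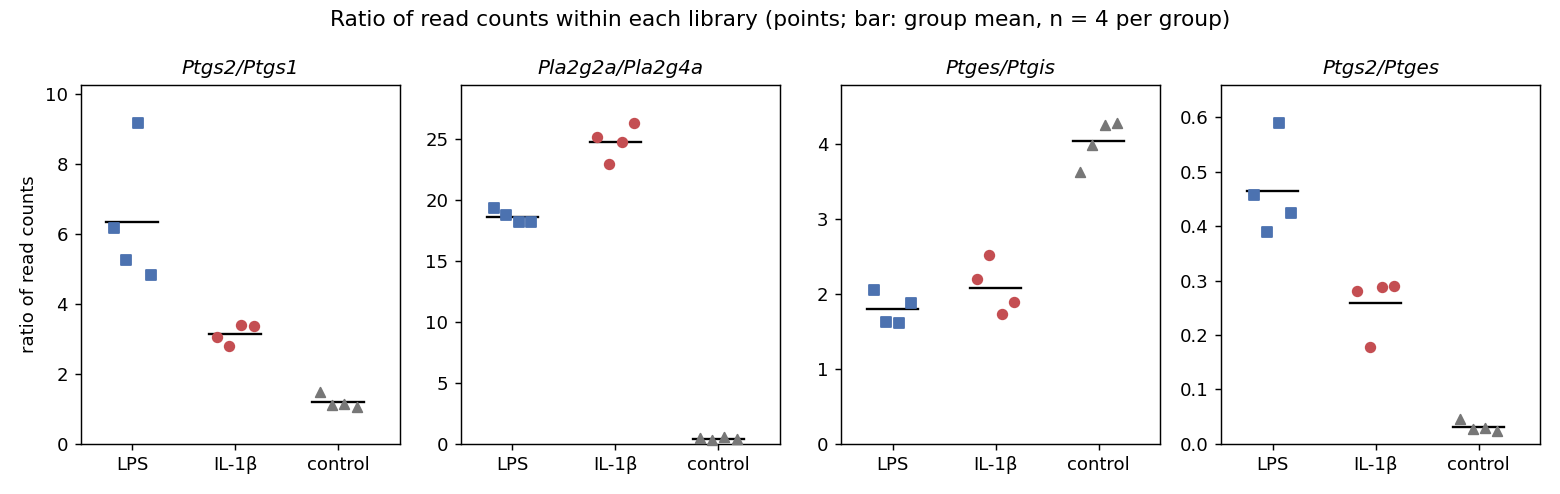
Ratio of the read counts of 2 genes within each library (points), by group (LPS, IL-1β, control), with the group mean as a bar (n = 4 libraries per group). Each axis starts at 0. For Ptgs2 to Ptges the LPS libraries (0.390 to 0.589) lie above the IL-1β libraries (0.178 to 0.290) and those above control (0.0226 to 0.0452).

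LPS was set against IL-1β directly to ask where the stimuli differ. Of the 10 members 4 were higher with LPS, against 11.3% of all genes, and 2 were lower, against 10.6%. At a fold of at least 1.5, 1 was higher, against 0.814% of all genes, and 1 lower, against 1.93%. Without overlap of the groups, 3 were higher, against 11.1%, and 3 lower, against 10.6%. Each of the counts of lower members includes Ptgds, which entered the test through its IL-1β libraries alone, and at a fold of at least 1.5 it is the sole one, so nothing is read from these counts of lower members. Ptgs2 was 1.62-fold higher with LPS than with IL-1β (0.69 ± 0.15, adjusted p = 0.00512, edgeR), and Pla2g5 1.44-fold higher (0.53 ± 0.13, adjusted p = 0.00289, edgeR). Pla2g2a was lower with LPS than with IL-1β (-0.28 ± 0.06, adjusted p = 0.0069, edgeR), so Pla2g2a and Pla2g5 ran in opposite directions between the stimuli. A further secreted phospholipase outside the members, Pla2g2d, was not called (0.27 ± 0.19, adjusted p = 0.337, edgeR). Ptgds had a log2 fold change of -2.00 ± 0.37 (adjusted p = 0.000212, edgeR), a direction that the filter on low counts fixed in part.

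Smaller differences were called for Ptges3 (0.13 ± 0.03, adjusted p = 0.00704, edgeR) and Ptges2 (0.18 ± 0.06, adjusted p = 0.0462, edgeR), both higher with LPS. The call of Ptges2 was lost in most other settings. Among them were the fits that left out 1 of the 4 Control libraries at a time (0.18, adjusted p = 0.0523 to 0.0544, edgeR). Without LPS replicates 3 and 4, which was tried after seeing the data, 1 member was called higher with LPS than with IL-1β: Pla2g5 stood at 0.44 (adjusted p = 0.0505), Ptges2 at 0.15 (adjusted p = 0.246) and Ptges3 at 0.06 (adjusted p = 0.28), and Ptgs2 kept its call at 0.59 (adjusted p = 0.00447). Calls over all genes were fewer there too, with 960 of 17764 genes higher, against 1960 of 17330 with all libraries. Pla2g4a (0.13 ± 0.06, adjusted p = 0.119, edgeR), Ptgs1 (-0.28 ± 0.13, adjusted p = 0.131), Ptges (-0.17 ± 0.11, adjusted p = 0.311) and Ptgis (0.05 ± 0.07, adjusted p = 0.705) were not called between the stimuli.

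Over the 3 groups, the order of levels was therefore IL-1β, LPS, control from high to low for Pla2g2a, and LPS, IL-1β, control for Pla2g5 and Ptgs2, with every step past the test over all 12 libraries. For Pla2g4a the stimuli shared the top and control was lowest. For Ptges and Ptgis control was highest, and LPS and IL-1β did not differ beyond their spread. For Ptgds IL-1β was highest, which the filter on low counts fixed in part. LPS and control overlapped for Ptgds, with a difference that was called in some settings and not in others. For Ptges3 the IL-1β libraries were lowest, and LPS and control overlapped.

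Genes around the members in eicosanoid metabolism were listed by function. Their counts are to be read beside the shares of all genes called, 22.5% higher and 20.0% lower with LPS and 24.7% higher and 23.0% lower with IL-1β, and with lists this short nothing is read from a count near them. For Pla2g2d, Alox15, Hpgd and Ptgdr2, the control libraries alone fell short of the filter on low counts. These genes were tested through stimulated libraries, so their rises followed in part from the filter. Of 21 other phospholipases A2 and regulators 12 were tested, of which 5 rose and 2 fell with LPS, and 7 rose and 2 fell with IL-1β (median log2 fold change 0.13 with LPS and 0.20 with IL-1β). The highest was Pla2g2d, a further secreted phospholipase, at 1.59 ± 0.22 with LPS and 1.32 ± 0.23 with IL-1β, from 43 to 61, 33 to 46 and 9 to 21 reads per LPS, IL-1β and control library. Anxa1, whose protein inhibits phospholipase A2, rose by 0.33 ± 0.04 with LPS and 0.26 ± 0.04 with IL-1β, and the calcium-independent Pla2g6 rose by 0.32 ± 0.06 with LPS and 0.46 ± 0.06 with IL-1β. Pla2g1b, the pancreatic type, had 0.59 ± 0.30 with LPS, which was not called, and rose with IL-1β (0.88 ± 0.30). Pla2g7, which breaks down platelet-activating factor, fell (-0.31 ± 0.06 with LPS, -0.19 ± 0.06 with IL-1β), as did the lysosomal Pla2g15 (-0.22 ± 0.06 with LPS, -0.26 ± 0.07 with IL-1β).

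Acsl4 and Lpcat3, which load arachidonic acid into membranes, rose with both stimuli. Acsl4, which activates arachidonic acid with coenzyme A, averaged 213 ± 5.68 CPM with LPS, 227 ± 5.203 CPM with IL-1β and 126 ± 3.59 CPM in control (SD, n = 4 each; 0.76 ± 0.03 with LPS, 0.85 ± 0.03 with IL-1β). Lpcat3, which places it into phospholipids, rose by 0.61 ± 0.03 with LPS and 0.66 ± 0.03 with IL-1β. Mgll, which frees it from a signalling lipid, rose with IL-1β (0.76 ± 0.08) and was not called with LPS (0.09 ± 0.08), and the direct contrast of LPS with IL-1β passed the test (-0.67 ± 0.08, adjusted p = 2.63e-07, edgeR). Of the 8 genes of this list, 2 rose and 0 fell with LPS, and 4 rose and 0 fell with IL-1β.

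Of 5 other prostanoid synthases and reductases 4 were tested, of which 1 rose and 2 fell with LPS, and 1 rose and 1 fell with IL-1β. Cbr1, a carbonyl reductase that acts on prostaglandins, rose (0.42 ± 0.04 with LPS, 0.65 ± 0.04 with IL-1β), and Akr1b1, an aldose reductase whose human form can make prostaglandin F2α, fell (-0.47 ± 0.03 with LPS, -0.51 ± 0.03 with IL-1β). Thromboxane synthase, Tbxas1, fell with LPS (-0.98 ± 0.17) to 25 to 35 reads per library, against 45 to 72 in control, and was not called with IL-1β (-0.30 ± 0.16). It is known from platelets and macrophages. Of 12 macrophage markers 9 fell and 1 rose with LPS, against 20.0% and 22.5% of all genes. With IL-1β 8 fell and 1 rose, against 23.0% and 24.7%. Emr1 rose with LPS (0.31 ± 0.06) and fell with IL-1β (-1.57 ± 0.08). Cd163 rose with IL-1β (3.68 ± 0.46), from 0 to 3 reads per control library, so its rise followed in part from the filter on low counts. The sum of the macrophage markers was 59.4 to 66.4 CPM with LPS, 67.2 to 72.7 CPM with IL-1β and 116 to 124 CPM in control. The part of these markers in the change of Tbxas1 was not tested. The haematopoietic prostaglandin D synthase gene Hpgds, a mast cell gene, had at most 3 reads in any library and was not tested. Of 6 mast cell markers, Cpa3, Tpsab1, Cma1 and Ms4a2 had at most 2 reads in any library and Hdc had 4 to 18 and was not called. The receptor gene Kit, which other cell types of the ovary also express, had 725 to 1563 reads and rose with LPS (0.39 ± 0.11, adjusted p = 0.0122, edgeR) and with IL-1β (0.61 ± 0.10, adjusted p = 0.000654, edgeR). The sum of the list was 40.3 to 55.7 CPM with LPS, 55.2 to 60.3 CPM with IL-1β and 34.1 to 41.7 CPM in control. Nearly all of it was Kit, so the sum is not a measure of mast cells. The mean sum was 49.1 CPM with LPS, 57.3 CPM with IL-1β and 37.4 CPM in control. Kit alone averaged 48.6, 56.7 and 37.0 CPM in the same order.

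The lipoxygenase branch uses the same arachidonic acid. Alox15, which oxidizes arachidonic acid to lipoxin precursors, averaged 3.21 ± 0.558 CPM with LPS, 10.1 ± 1.29 CPM with IL-1β and 0.431 ± 0.0996 CPM in control (SD, n = 4 each). Alox15 had only 7 to 16 reads per control library. It rose with LPS (2.87 ± 0.21, adjusted p = 3.12e-12, edgeR) and with IL-1β (4.53 ± 0.17, adjusted p = 1.68e-18, edgeR), and was lower with LPS than with IL-1β (-1.66 ± 0.12, adjusted p = 3.59e-11, edgeR). Of 6 genes of this list 5 were tested, of which 2 rose and 0 fell with each stimulus, the other being Lta4h of leukotriene B4 synthesis (0.17 ± 0.03 with LPS, 0.27 ± 0.03 with IL-1β).

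Of 5 genes of prostaglandin transport and breakdown, 2 rose and 0 fell with LPS, and 3 rose and 1 fell with IL-1β. The prostaglandin transporter gene Slco2a1 rose by 2.49 ± 0.11 with LPS and 2.88 ± 0.11 with IL-1β, and the reductase gene Ptgr1 by 0.32 ± 0.06 with LPS and 0.54 ± 0.06 with IL-1β. Hpgd, whose enzyme inactivates prostaglandins, was at 0.66 ± 0.27 with LPS, which was not called (adjusted p = 0.0537, edgeR), and rose with IL-1β (1.34 ± 0.25). It had 12 to 22 reads per LPS library, 22 to 27 per IL-1β library and 5 to 15 per control library. Abcc4, an exporter of prostaglandins, was at -0.02 ± 0.04 with LPS and was not called, and fell with IL-1β (-0.15 ± 0.04).

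Of 9 prostanoid receptor genes 8 were tested, of which 2 rose and 1 fell with LPS, and 3 rose and 1 fell with IL-1β. The prostaglandin E2 receptor gene Ptger3 rose by 1.00 ± 0.21 with LPS and 1.87 ± 0.19 with IL-1β, and Ptger4, which encodes another, fell (-0.58 ± 0.08 with LPS, -0.87 ± 0.08 with IL-1β). The prostaglandin F2α receptor gene Ptgfr rose by 0.48 ± 0.11 with LPS and 0.40 ± 0.11 with IL-1β. Ptgdr2, for prostaglandin D2, was at 0.45 ± 0.30 with LPS, which was not called, and rose with IL-1β (0.86 ± 0.29).

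**Figure D4:**
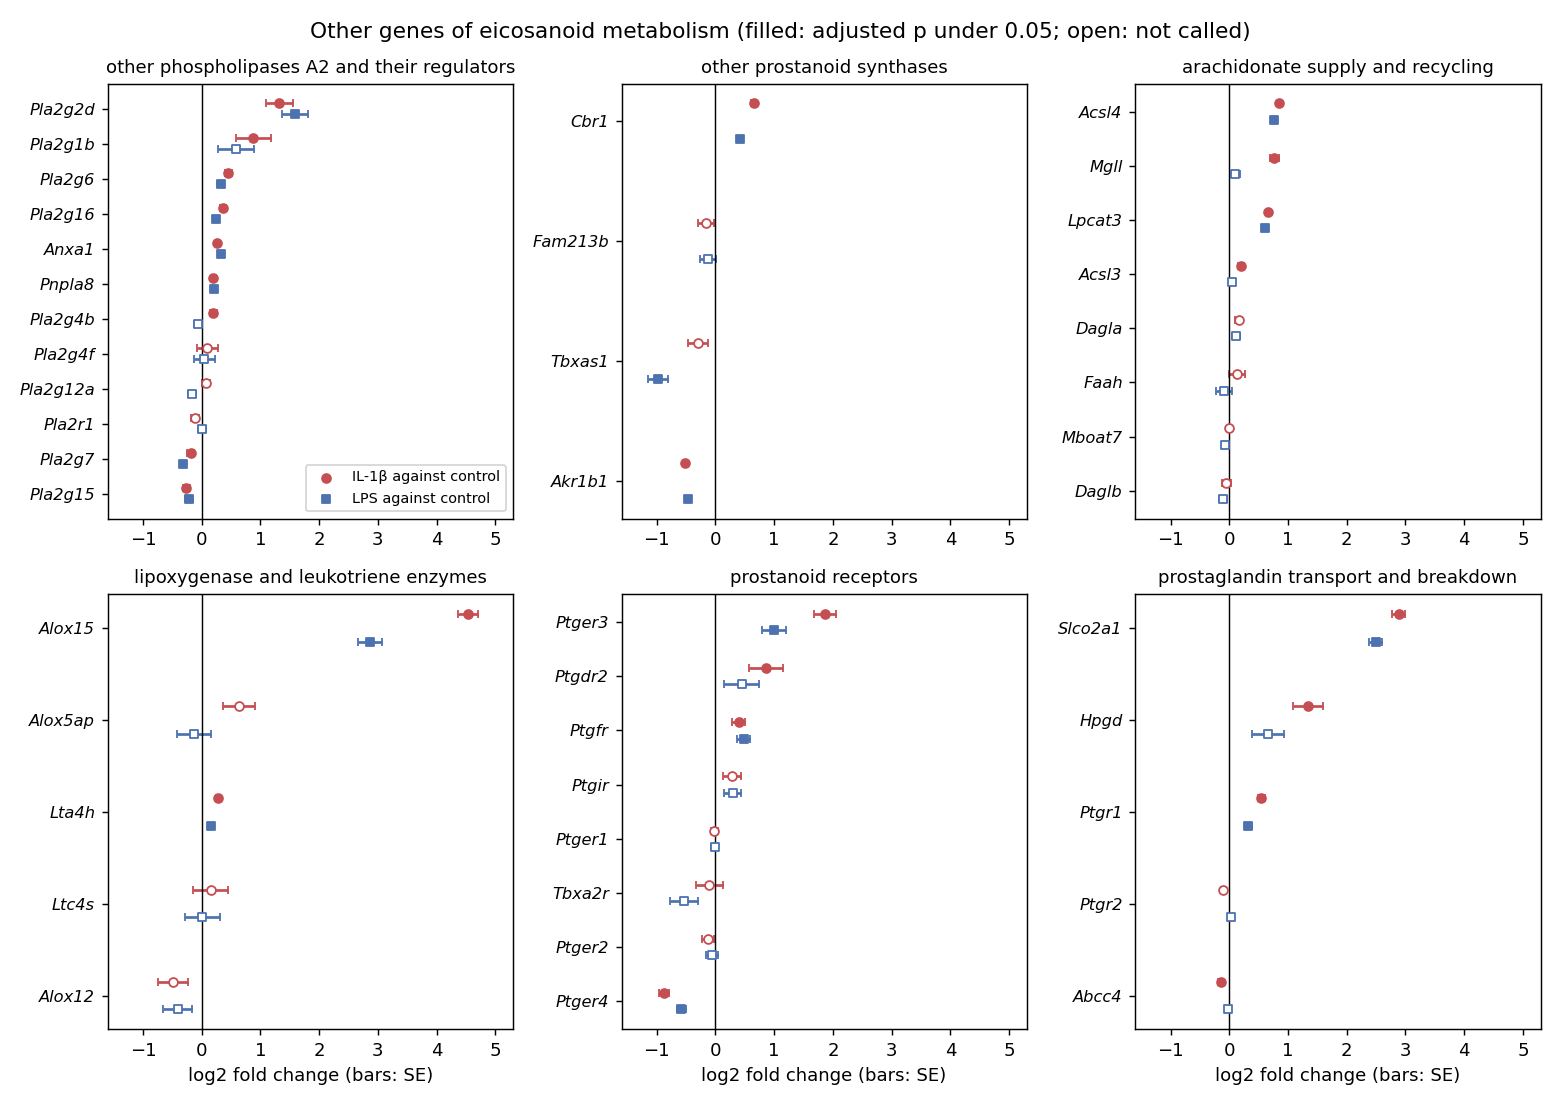
Log2 fold change of tested genes around the members, in 6 lists by function, with LPS against control (squares) and IL-1β against control (circles) and bars for the SE. Filled symbols had an adjusted p under 0.05. Alox15 and Slco2a1 lie furthest to the right with both stimuli, and Tbxas1 with LPS and Ptger4 with IL-1β furthest to the left.

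The genes most like a member were sought over the 12 libraries, by the root mean square difference of log2 CPM set to the control mean, among 11537 genes of at least 2 CPM with an informative symbol. Symbols that begin with LOC, RGD, AABR, NEWGENE or AC and a digit, or end in a hyphen and digits, were left out beforehand. For Pla2g2a they were the chemokine gene Cxcl6 (0.38), Hpx, whose protein binds haem (0.38), and Lcn2, whose protein binds bacterial iron carriers (0.73). For Ptgs2 they were Nfkbiz, an atypical IκB protein gene (0.23), the cytokine gene Il7 (0.23) and Raet1d (0.27). For Ptges they were the creatine kinase gene Ckb (0.13), Crispld2 (0.14) and Tex14 (0.15).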

How the data were processed

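Polyadenylated RNA of 12 libraries was measured, 4 each with LPS, IL-1β and vehicle. What the authors deposited is 1 table of whole-number read counts, unnormalized, with a row for each symbol. TopHat2 (2.1.1), the build Rnor_6.0, SAMtools and DESeq2 are named in the submitters' processing notes. The read counter, its strand setting and the annotation are not given in the sources used here. Of 30045 symbols, 1425 had no count. Libraries held 20873934 to 32090924 counts.

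Genes were kept with filterByExpr (17330), scaled by TMM (factors 0.976 to 1.02) and fitted over all 12 libraries with the group as sole term (raw counts with edgeR 4.0.16 in R 4.3.3, glmQLFit with robust estimation, two-sided glmQLFTest, Benjamini-Hochberg). The SE is the absolute log2 fold change over the square root of F. DESeq2 1.42.0 and limma 3.58.1 gave alternatives. The procedure was tested on simulated data. Replicate pairs of a group differed by more than counting noise (chi-square per degree of freedom at least 1.84). Members, gene lists and ratios were chosen with earlier results of these data known, and so were the motifs. All 10 members are named. From each pathway list, up to 3 called genes with the highest and up to 3 with the lowest fold change in each comparison with control are named. Genes most alike were the 3 nearest to Pla2g2a, Ptgs2 and Ptges. Every listed gene had a row, with Adgre1 found as Emr1.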

Additional observations from a re-analysis of the deposited data

Results flagged for a closer look

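In groups of 4 libraries, the gap of the highest or lowest library to its neighbour was set against the group's whole range and compared with Dixon's 95% critical value. Of 30 such groups, 2 passed, where chance gives about 1 in 20. Ptgs1 in IL-1β replicate 1 stood at 3.34 CPM, apart from the next library at 2.74 CPM. Ptgis in IL-1β replicate 3 stood at 18.7 CPM, apart from the next at 16.5 CPM.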

How the results depend on the processing

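Counts of members called were recomputed in 23 other settings, 1 of them added after seeing the data. With a fold of at least 1.5, 1 member was lower with IL-1β than control, 3 were higher and 1 lower with LPS than control, and 1 was higher and 1 lower with LPS than IL-1β. Between LPS and IL-1β, 1 member was lower with the stricter filter and 1 with DESeq2, which gave no adjusted p for Ptgds, and without LPS replicates 3 and 4, the added setting, 1 was higher. With 1 library left out, the counts were 5 to 6 higher and 2 lower with LPS, 5 higher and 3 lower with IL-1β, and 3 to 4 higher and 2 lower with LPS against IL-1β. Of 655 values of single members, 623 kept direction and call. Those that turned sign were small: Ptges3 with LPS against control, at -0.0027 with upper-quartile factors, -0.060 without LPS replicates 3 and 4, and -0.021 to 0.033 with 1 library left out (below 0 without LPS replicate 3, LPS replicate 4 or Control replicate 2), and Ptgis with LPS against IL-1β, at -0.0033 to 0.096 with 1 library left out (below 0 without LPS replicate 3). The cause was not tested. Replicate numbers are shared by the groups, and the correlation of deviations was 0.00686 to 0.252 (median 0.129) over 12 same-numbered pairs, against a median of -0.0523 over 36 other pairs. Of 12 libraries, 9 correlated best with their own number. The labels do not say what the numbers stand for, and the main fit did not pair the libraries by them. With a replicate block, 5 members were higher and 3 lower with IL-1β, 6 and 2 with LPS, and 4 and 2 between LPS and IL-1β, the added call being Ptgds with LPS (1.49, adjusted p = 0.0494). Ptgds had 0 to 26 reads per library and Ptgs1 50 to 87, and the part of read depth in their results was not tested.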
